A study of Rattus norvegicus with 4 samples.

Results

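Potassium channel genes were taken as every gene of the count tables whose symbol starts with Kcn followed by a letter, which gave 92 of 32883 genes. They comprised 38 genes for voltage-gated pore subunits, 12 for auxiliary subunits of voltage-gated channels, 12 for calcium- or sodium-activated channels and their auxiliary subunits, 15 for inward rectifiers, 14 for two-pore domain channels and 1 gene, Kcnrg, outside these families. Over all nuclei, 8 of the 92 had no transcript count and 22 had fewer than 10. The nuclei came from frozen adipose tissue of untreated male Dahl salt-sensitive rats (strain SS/HsdMcwiCrl, from Charles River) aged 16 weeks. One tissue was thoracic aorta perivascular adipose tissue (taPVAT), the fat around the upper aorta, and the other was subscapular brown adipose tissue (BAT), each with 2 libraries from 2 rats. The sources do not say whether 1 rat gave both tissues, all rats were male and of 1 inbred strain, and no salt-resistant strain or salt load enters these comparisons.

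Potassium channels let potassium leave a cell down its gradient and so set or restore the negative membrane potential. Voltage-gated and calcium-activated channels open on depolarisation or a rise in calcium, inward rectifiers and two-pore channels carry resting current, and ATP-sensitive channels pair the inward rectifier Kcnj8 or Kcnj11 with a sulfonylurea receptor, Abcc9 or Abcc8. In the vessel wall these channels oppose contraction of smooth muscle, and in brown adipocytes the two-pore channel Kcnk3 (TASK-1) is known to limit the depolarisation and calcium entry evoked by adrenergic stimulation.

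Of the 92 genes, 62 matched an entry in the RefSeq promoter table for the rat assembly GRCr8, and 4 upstream windows are printed for genes on which the class patterns below turn. Kcnj8 and Abcc9, the pore and the sulfonylurea receptor of the vascular ATP-sensitive channel, lie next to each other on chromosome 4 with 0 protein-coding genes between them, and both were highest in mural nuclei. Kcnt2 was highest in vascular endothelial nuclei and Kcnh8 in Schwann cell nuclei. Each window holds the 250 bases before the annotated start, and capitals mark the GC box GGGCGG, read on either strand. The positions are chr4:177246549-177246798 and chr4:177386349-177386598 on the minus strand, and chr13:54215057-54215306 and chr9:5742433-5742682 on the plus strand, from the GRCr8 assembly, which is not the build of the count tables.
Kcnj8: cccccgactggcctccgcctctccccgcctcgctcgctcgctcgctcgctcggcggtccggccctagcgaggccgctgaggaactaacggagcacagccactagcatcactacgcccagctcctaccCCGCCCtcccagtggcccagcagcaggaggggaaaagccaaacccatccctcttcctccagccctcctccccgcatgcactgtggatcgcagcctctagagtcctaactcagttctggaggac
Abcc9: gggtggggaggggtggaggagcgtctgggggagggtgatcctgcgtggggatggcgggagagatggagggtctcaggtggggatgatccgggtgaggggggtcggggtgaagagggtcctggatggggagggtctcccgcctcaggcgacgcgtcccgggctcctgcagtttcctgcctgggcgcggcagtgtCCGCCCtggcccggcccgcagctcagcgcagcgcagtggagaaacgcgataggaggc
Kcnt2: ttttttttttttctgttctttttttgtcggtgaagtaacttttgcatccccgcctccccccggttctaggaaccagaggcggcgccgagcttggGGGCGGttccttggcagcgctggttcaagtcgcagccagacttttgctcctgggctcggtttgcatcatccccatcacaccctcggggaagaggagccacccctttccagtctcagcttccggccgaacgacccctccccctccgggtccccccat
Kcnh8: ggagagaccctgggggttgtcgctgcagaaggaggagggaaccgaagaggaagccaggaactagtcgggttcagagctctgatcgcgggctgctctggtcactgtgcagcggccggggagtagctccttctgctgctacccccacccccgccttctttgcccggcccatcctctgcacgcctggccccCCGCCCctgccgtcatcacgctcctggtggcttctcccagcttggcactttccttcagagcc
Each of these windows held 1 GC box, and none held the TATA box TATAAA, the core TGGGAA that the Notch effector RBPJ binds, or the CArG box of serum response factor, searched on both strands. Of 33469 windows of this length in the table, 30.5% held the GC box, 12.9% the TATA box, 22.1% the RBPJ core and 1.5% a CArG box. Among the 70 windows of Kcn genes, 34 held the GC box, 2 the TATA box, 16 the RBPJ core and 0 a CArG box. These are matches of letters only.

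After filtering, 38350 and 11520 taPVAT nuclei (replicates 1 and 2) and 28151 and 22695 BAT nuclei remained, with 56623563 to 136258278 unique molecular identifiers (UMIs, counted transcript molecules) per library. Clusters of nuclei were named from marker genes, and the 5 classes used below held 41 to 24331 nuclei per library, the fewest being Schwann cell nuclei of taPVAT replicate 2. Another 15978 of 100716 nuclei lay in clusters named mixed and entered no class. They numbered 8748 and 1090 in taPVAT and 3176 and 2964 in BAT. Among them were 972 nuclei of a further cluster led by Rgs5 and 2453 of a cluster led by Cyyr1. The part of this exclusion in the cluster shares and tissue differences below was not tested. Levels are counts per 1000000 UMIs of a class in each library (CPM), and pairs of values are in the order replicate 1, replicate 2. In nuclei, fewer cells expressing a gene and less RNA per cell cannot be told apart in such a sum. Each class held its own markers, except that Ncmap had no UMI in the Schwann cell class. Markers of other classes were present too. Fibroblast markers summed to 2099 to 3420 CPM in Schwann cell nuclei, against 4270 to 9987 CPM in fibroblast nuclei. Schwann cell markers summed to 1670 to 2798 CPM in fibroblast nuclei, against 5246 to 8828 CPM in Schwann cell nuclei. Skeletal muscle markers summed to 368 to 857 CPM in mural nuclei. The source of these UMIs was not tested. Ucp1, the uncoupling protein that defines brown fat, was present in adipocyte nuclei of both tissues, at 930.0 and 458 CPM in taPVAT and 1527 and 674 CPM in BAT. In each tissue replicate 1 was above replicate 2, and the tissues overlapped. Libraries stood apart within classes: 85.4% of adipocyte nuclei of BAT replicate 1, 78.2% of taPVAT replicate 1, 90.9% of BAT replicate 2 and 73.4% of taPVAT replicate 2 each fell in a different cluster. Of 115359 barcodes, 1293 occurred in more than 1 library.

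UMIs of adipocyte markers were present in all other classes. The median level of the 12 adipocyte markers, as a percentage of their level in adipocyte nuclei of the same library, was 25.4 to 52.1% in mural, 29.2 to 51.8% in vascular endothelial, 22.8 to 65.6% in fibroblast and 33.4 to 64.6% in Schwann cell nuclei. Single markers ranged from 0 to 391% of their adipocyte level over the classes and libraries. Whether these UMIs came from adipocyte RNA, from doublets or from the class itself was not tested, and the same holds for a channel gene that adipocytes also hold.

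Kcn genes made up the largest share of UMIs in Schwann cell and mural nuclei. Median depth was 1986.5 UMIs in Schwann cell, 1623.5 in mural and 3610 in adipocyte nuclei. These shares therefore do not rank the classes by Kcn UMIs per nucleus. The 92 genes together stood at 2584 and 3580.3 CPM in taPVAT and 2609 and 3209 CPM in BAT in Schwann cell nuclei and at 1729 and 2069.6 CPM in taPVAT and 1975 and 1979 CPM in BAT in mural nuclei. In adipocyte nuclei they stood at 1114 and 900.0 CPM in taPVAT and 1428 and 870.4 CPM in BAT, in fibroblast nuclei at 923 and 714 CPM in taPVAT and 1019.8 and 743 CPM in BAT and in vascular endothelial nuclei at 678 and 574 CPM in taPVAT and 595 and 538 CPM in BAT. Every value of the Schwann cell and mural classes lay above every value of the other 3 classes. Voltage-gated pore subunits made up 85.2% (81.4 to 94.7%) of Kcn UMIs in Schwann cell nuclei, given as the mean and range over the 4 libraries, 46.4% (38.4 to 56.3%) in mural, 46.3% (40.3 to 55.4%) in adipocyte, 39.5% (30.3 to 44.4%) in fibroblast and 25.6% (22.4 to 27.9%) in vascular endothelial nuclei. Two-pore channels made up 30.7% (23.0 to 36.4%) in adipocyte nuclei, where Kcnk3 had 331 of their 342 CPM on average. Calcium- and sodium-activated channels made up 26.1% (19.97 to 32.0%) in endothelial and 18.9% (11.3 to 23.4%) in mural nuclei, and inward rectifiers 11.5% (7.97 to 17.1%) in mural nuclei against 1.43% (0.864 to 1.77%) in adipocyte nuclei. UMIs depend on how much of each transcript is primed and counted, so the shares do not rank the channels by protein or current.

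In 17 members, 1 class had the highest level in all 4 libraries with at least 10 UMIs in each. The mural class led 6 of them, among them Kcnma1, Kcnt1, Kcnj8, Kcnq5 and Kcnq1. The Schwann cell class led 4, Kcnh8, Kcnq3, Kcnd3 and Kcnc2, and the adipocyte class led 3, among them Kcnk3. The vascular endothelial class led Kcnt2, Kcnn4 and Kcns3, and the fibroblast class led Kcnk5. By family, 10 of the 17 were voltage-gated pore subunits, 4 calcium- or sodium-activated channels, 2 two-pore channels and 1 an inward rectifier, and no auxiliary subunit was among them. With nuclei chosen singly by marker UMIs in place of clusters, Kcnn4 and Kcns3 no longer led the vascular endothelial class in all 4 libraries. The nuclei chosen by Schwann cell markers lay mostly in adipocyte clusters. With them among the classes Kcnk3 lost its lead and without them it kept it, and they give no check of the 4 genes that the Schwann cell class led. The other members named here for the mural, vascular endothelial and fibroblast classes kept their leads.

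**Figure D1:**
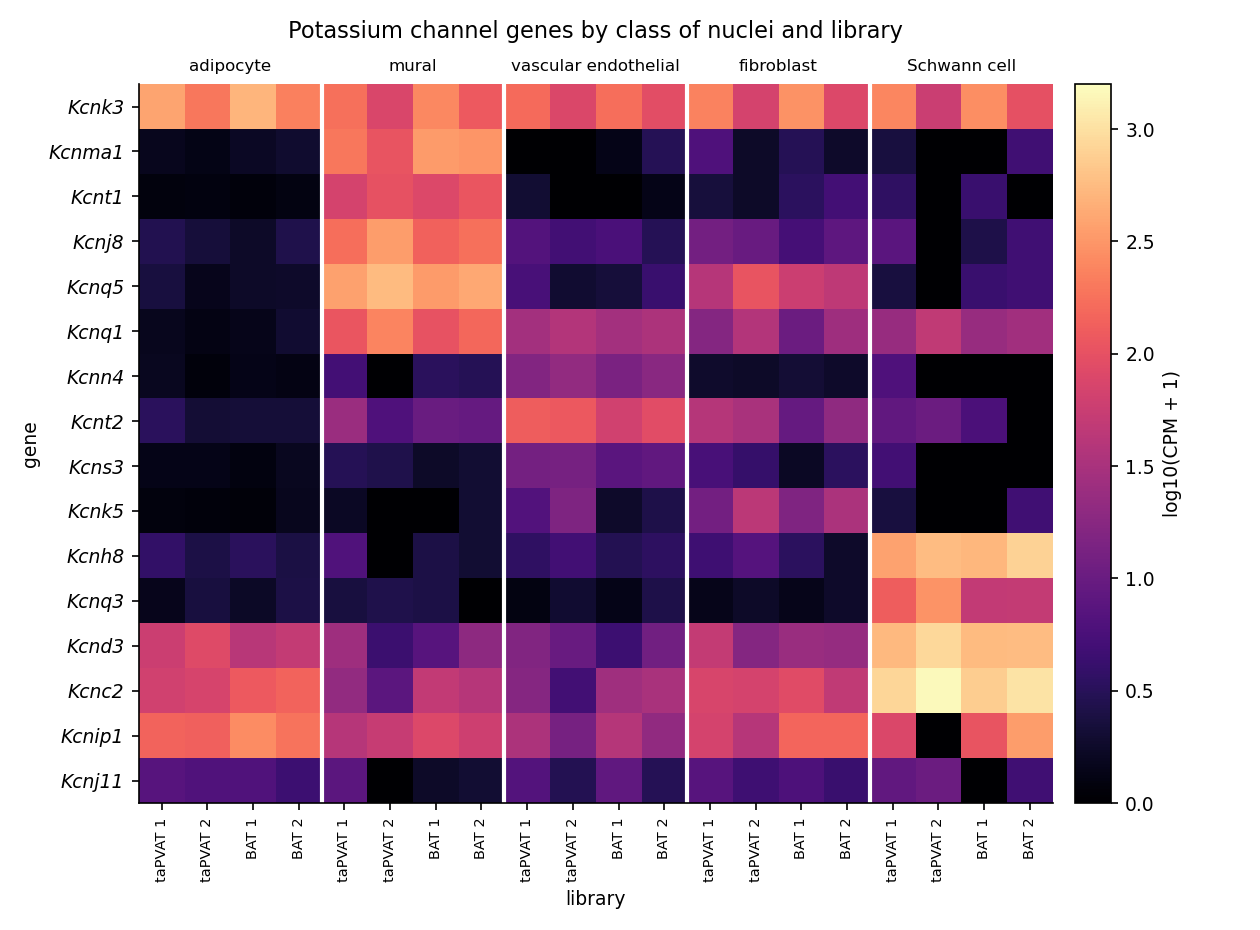
Level of 16 potassium channel genes (rows) in each class of nuclei and library (columns), as the colour of log10(CPM + 1). Of the 17 genes led by 1 class, 14 are drawn, followed by Kcnip1 and Kcnj11; Kcnma1, Kcnt1, Kcnj8 and Kcnq5 are bright in the mural columns, Kcnh8 and Kcnq3 in the Schwann cell columns, and Kcnk3 has colour in every column.

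Mural nuclei, from the smooth muscle cells and pericytes around vessels, carried the pair of the vascular ATP-sensitive channel. Kcnj8, its pore, stood at 168 and 345 CPM in taPVAT and 139.8 and 172 CPM in BAT in mural nuclei. It reached 4.21 to 11.2 CPM in fibroblast, 2.05 to 5.79 CPM in vascular endothelial and 0.777 to 1.84 CPM in adipocyte nuclei. Abcc9, the sulfonylurea receptor SUR2, stood at 1928 and 3278 CPM in taPVAT and 1652 and 1626 CPM in BAT in mural nuclei. For both genes taPVAT replicate 2 was the highest of the 4 mural values, and the other taPVAT library was near the BAT libraries. Abcc9 was also present in fibroblast nuclei, at 293 and 279 CPM in taPVAT and 183 and 124 CPM in BAT, where Kcnj8 was low. Kcnj2, which encodes the inward rectifier Kir2.1 known from vascular cells, had 0 UMIs in mural nuclei of every library. A count of 0 allows up to 0.368%, 1.03%, 0.522% and 0.546% of nuclei with a UMI in the 4 libraries, a limit that covers counting error only.

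The 2 sodium-activated channel genes were divided between vascular classes. Kcnt1 (Slack) stood at 68.8 and 101 CPM in taPVAT and 80.7 and 111 CPM in BAT in mural nuclei. Kcnt2 (Slick) stood at 127 and 117 CPM in taPVAT and 63.4 and 89.3 CPM in BAT in vascular endothelial nuclei. Kcnt1 reached 0 to 1.05 CPM in vascular endothelial nuclei and Kcnt2 5.14 to 23.6 CPM in mural nuclei, so neither gene overlapped between these classes in any library. Kcnma1, the pore of the large-conductance calcium-activated channel BK, stood at 198 and 106 CPM in taPVAT and 343 and 315 CPM in BAT in mural nuclei and at most at 5.15 CPM in fibroblast nuclei. Its smooth muscle partner Kcnmb1 reached only 4.72 and 10.3 CPM in taPVAT and 5.38 and 5.16 CPM in BAT, from 7 and 6 UMIs in taPVAT and 7 and 5 UMIs in BAT. Kcnmb1 lies within Kcnip1 on the opposite strand in the RefSeq annotation, and whether reads were counted by strand is not given in the sources used here, which leaves its counts uncertain.

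Of the Kv7 genes, whose channels hold vascular smooth muscle at negative potentials, Kcnq5 and Kcnq1 were led by the mural class. Kcnq5 stood at 372 and 556 CPM in taPVAT and 335 and 411 CPM in BAT in mural nuclei. Kcnq1 stood at 109 and 242 CPM in taPVAT and 104 and 151 CPM in BAT. For both genes the libraries of the tissues overlapped, with taPVAT replicate 2 highest. Both were higher in the Rgs5 cluster of the class, described below, with Kcnq5 at 511 to 578 CPM and Kcnq1 at 141 to 256 CPM. In 3 libraries of its Acta2 cluster, led by smooth muscle actin, Kcnq5 stood at 19.1 to 36.3 CPM and Kcnq1 at 19.1 to 34.3 CPM. Kcnq3 was at 0 to 1.71 CPM in mural nuclei and was led by the Schwann cell class. The voltage-gated genes Kcna2 and Kcna5, often named for arterial smooth muscle, reached 1.71 to 6.92 and 0.675 to 3.07 CPM in mural nuclei, from 19 and 7 UMIs in all. They rest on a few UMIs per library. In 3 libraries of the Acta2 cluster Kcna2 stood at 11.9 to 17.2 CPM, from 18 UMIs, and Kcna5 at 2.39 to 5.74 CPM. In the Rgs5 cluster Kcna2 had 0 UMIs and Kcna5 stood at 0 to 1.28 CPM.

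The mural class was made of 2 clusters, and several channel genes lay almost wholly in 1 of them. Others, such as Kcnk3, Kcnc2 and Kcnab1, were present in both. The larger, led by Rgs5, held 85.8 and 94.9% of mural nuclei in taPVAT and 74.8 and 77.6% in BAT, and the smaller, led by Acta2 (smooth muscle actin), held the rest. In the 4 libraries the Rgs5 cluster had Kcnj8 at 234, 365, 234 and 247 CPM, Kcnt1 at 96.0, 107, 135 and 158 CPM and Kcnq5 at 511, 578, 536 and 576 CPM. The Acta2 cluster had 0 UMIs of Kcnj8 and of Kcnt1 in taPVAT replicate 1, BAT replicate 1 and BAT replicate 2, which allows up to 2.59%, 2.07% and 2.44% of its nuclei with a UMI, and taPVAT replicate 2, with 15 of its nuclei, gave no value. Kcnma1 had the opposite pattern, at 692, 853 and 989 CPM in the Acta2 cluster of taPVAT replicate 1, BAT replicate 1 and BAT replicate 2, and at 3.76, 3.64, 0 and 25.1 CPM in the Rgs5 cluster of the 4 libraries. Kcnma1 lay almost wholly in the smaller cluster. Kcnab1, an auxiliary beta subunit of Kv1 channels, stood at 375, 438 and 371 CPM in the Acta2 cluster and at 51.7, 54.5, 41.1 and 69.4 CPM in the Rgs5 cluster. Kcnj12, the inward rectifier Kir2.2, was present in the Acta2 cluster, at 21.5, 26.8 and 17.2 CPM, and had 0 UMIs in the Rgs5 cluster, which allows up to 0.429%, 1.08%, 0.698% and 0.704% of its nuclei in the 4 libraries. Since the clusters were drawn from these nuclei, the differences are a description, and Kcn genes had been left out of the genes used to cluster.

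**Figure D2:**
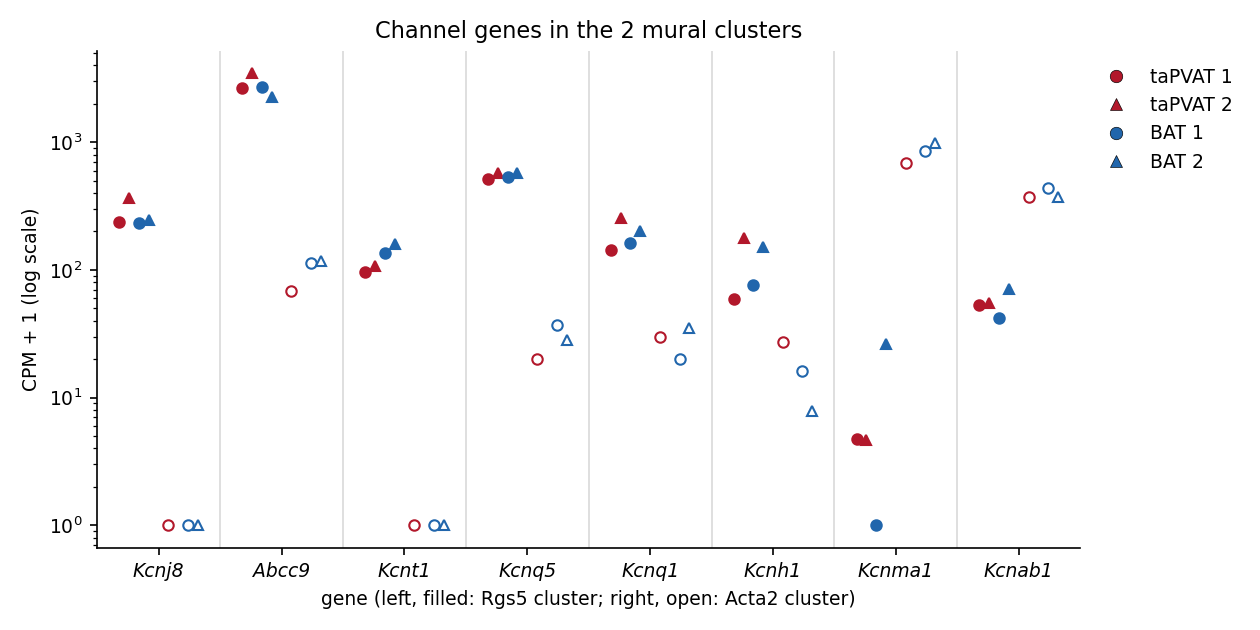
Level of 8 channel genes (CPM + 1, log scale) in the Rgs5 cluster (filled, left) and the Acta2 cluster (open, right), 1 point per library. Kcnj8 and Kcnt1 lie at 0 in the Acta2 cluster in the 3 libraries with a value, and Kcnma1 lies at 692 to 989 CPM there and at no more than 25.1 CPM in the Rgs5 cluster.

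In adipocyte nuclei Kcnk3, which encodes the acid-sensitive two-pore channel TASK-1, stood at 389.6 and 196 CPM in taPVAT and 511 and 228 CPM in BAT. Replicate 1 of each tissue was above replicate 2 of either tissue, so that the tissues overlapped. Kcnh1, a Kv10 pore, stood at 49.3 and 57.9 CPM in taPVAT and 44.0 and 30.4 CPM in BAT in adipocyte nuclei. Kcnd3, a Kv4 pore, stood at 58.5 and 84.6 CPM in taPVAT and 40.2 and 50.2 CPM in BAT. For both genes the 2 taPVAT libraries were above the 2 BAT libraries. Kcnc2 stood at 62.4 and 70.3 CPM in taPVAT and 119 and 141 CPM in BAT, with both BAT libraries above both taPVAT libraries.

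Kcnk3 in the other classes stood below its adipocyte level. It reached 38.4 to 52.5% of its adipocyte level in mural nuclei, 33.1 to 40.9% in vascular endothelial, 34.6 to 59.9% in fibroblast and 28.8 to 63.6% in Schwann cell nuclei. Within the mural class, however, Kcnk3 stood at 289, 392 and 179 CPM in the Acta2 cluster (taPVAT replicate 1, BAT replicate 1, BAT replicate 2) and at 129.8, 63.6, 155 and 94.5 CPM in the Rgs5 cluster. The part of adipocyte RNA in this difference was not tested.

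**Figure D3:**
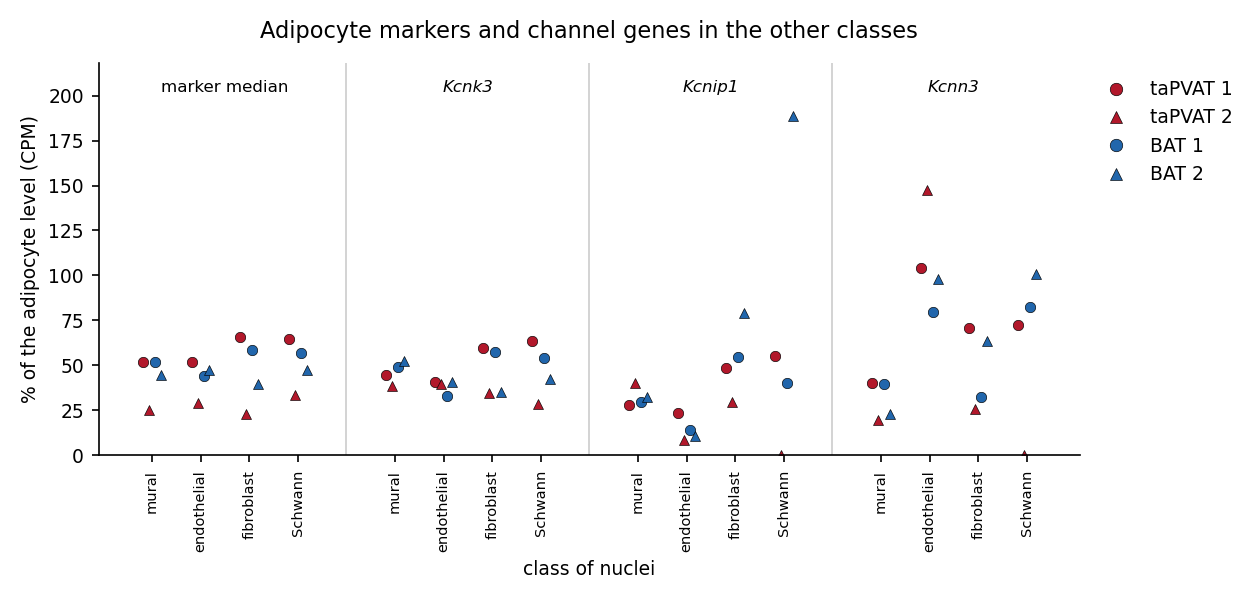
Level in mural, vascular endothelial, fibroblast and Schwann cell nuclei as a percentage of the level in adipocyte nuclei of the same library, for the median of 12 adipocyte markers and for 3 channel genes, 1 point per library. Over the 4 classes the points of Kcnk3 lie between 28.8 and 63.6% and those of the marker median between 22.8 and 65.6%.

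Kcnip1, which encodes the calcium-binding auxiliary subunit KChIP1 of Kv4 channels, stood at 142 and 133 CPM in taPVAT and 266 and 184 CPM in BAT in adipocyte nuclei, and this level came from a minority of nuclei. A cluster led by Kcnip1, which also had Tshr and Ca3 among its leading genes, held 6.48 and 7.09% of adipocyte nuclei in taPVAT and 9.61 and 7.58% in BAT. There Kcnip1 stood at 2412, 3160.2, 3356 and 3097 CPM in the 4 libraries, against 0 to 27.2 CPM in the 4 large adipocyte clusters, in libraries with at least 20 of their nuclei. Kcnn3, the small-conductance calcium-activated channel SK3, followed the same division, at 401, 472, 434 and 397 CPM in that cluster and 0 to 12.7 CPM in the 4 large ones. Kcnd3, a Kv4 pore that KChIP subunits bind, stood at 69.8, 185, 74.9 and 114 CPM there. Kcnh1 was sparse in this cluster, at 6.51, 3.08, 6.76 and 4.40 CPM. Its mean over libraries was 44.9, 48.4, 24.8 and 61.8 CPM in the large clusters, led by Ehhadh, Asic2, Entpd1 and Cyp4a2. A further cluster with Kcnip1 among its leading genes, led by Nnat, came almost wholly from the replicate 1 libraries, and its median depth was 6157 UMIs against 2296 in the cluster led by Kcnip1.

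Kcnj11 and Abcc8, a pore and a receptor of ATP-sensitive channels, were scarce in adipocyte nuclei. Kcnj11, the pore Kir6.2, stood at 6.16 and 5.34 CPM in taPVAT and 5.48 and 3.54 CPM in BAT in adipocyte nuclei, and its receptor partner Abcc8 (SUR1) at 13.4 and 20.1 CPM in taPVAT and 6.97 and 10.7 CPM in BAT. For Abcc8 both taPVAT libraries lay above both BAT libraries, and for Kcnj11 BAT replicate 1 lay between the taPVAT libraries. Kcnj11 reached 0 to 6.75 CPM in mural nuclei. Abcc8 stood at 17.5 and 3.43 CPM in taPVAT and 18.4 and 9.30 CPM in BAT there, and at 27.5 to 40.6 CPM in 3 libraries of the Acta2 cluster, above every adipocyte library. In nuclei chosen singly by markers, in the test between classes described further on, edgeR's log2 difference of Abcc8 from the mean of the other classes was 0.96 (SE 0.33, adjusted p = 0.0455) in mural and 0.57 (SE 0.22, adjusted p = 0.0324) in adipocyte nuclei. Over the 8 alternatives the adjusted p ranged from 0.00734 to 0.254 in mural and from 0.00648 to 0.104 in adipocyte nuclei.

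Vascular endothelial nuclei led 3 members. Besides Kcnt2, these were Kcnn4, the intermediate-conductance calcium-activated channel KCa3.1 that hyperpolarises endothelium, at 15.3 and 20.4 CPM in taPVAT and 12.99 and 16.8 CPM in BAT, and Kcns3, a silent voltage-gated subunit that modifies Kv2 channels, at 11.6 and 11.6 CPM in taPVAT and 6.69 and 7.78 CPM in BAT. Kcns3 was above BAT in both taPVAT libraries, and Kcnn4 overlapped. Kcnab1 was also abundant, at 76.3 and 109.7 CPM in taPVAT and 92.5 and 100.3 CPM in BAT.

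At a finer clustering the endothelial channel genes fell into different clusters. A small cluster led by Eln (elastin), with 37 to 181 nuclei per library, had Kcnab1 at 792, 767, 817 and 578 CPM in the 4 libraries, Kcnn4 at 100.5, 112, 73.9 and 98.2 CPM and Kcnn3 at 119, 77.6, 159 and 86.6 CPM. The 2 large clusters, of which one was led by Cyyr1, had Kcnn4 at 1.62 to 29.8 CPM in the libraries with at least 20 of their nuclei. Kcnt2 was the reverse: it stood at 29.8, 0, 15.6 and 8.66 CPM in the Eln cluster and at 44.3 to 168 CPM in the large clusters. The large clusters followed the libraries, since the Cyyr1 cluster held 83.1 and 90.3% of the class in the replicate 1 libraries of taPVAT and BAT and the other large cluster 65.9 and 81.7% in the replicate 2 libraries. A cluster led by Reln and named lymphatic endothelial-like from its markers held 9.38 and 8.52% of the class in taPVAT and 0.844 and 0.651% in BAT. It had Kcnk5 (TASK-2) at 47.1 and 140.0 CPM in taPVAT, and Kcnk5 reached at most 0.986 CPM in the other endothelial clusters.

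**Figure D4:**
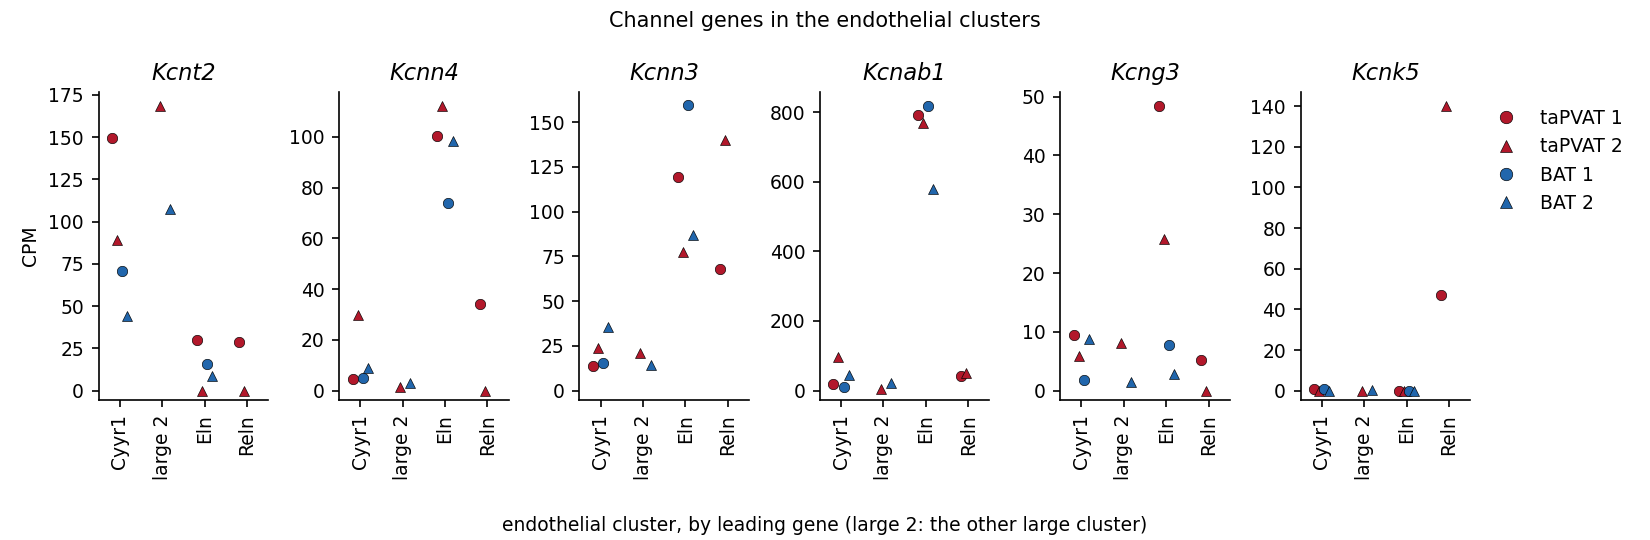
Level of 6 channel genes (CPM) in the endothelial clusters led by Cyyr1, Eln and Reln and in the other large cluster (large 2), 1 point per library with at least 20 nuclei of the cluster. Kcnn4 and Kcnab1 are highest in the Eln cluster, Kcnt2 in the 2 large clusters, and Kcnk5 in the Reln cluster, where only the taPVAT libraries have a point.

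Among the classes, fibroblast nuclei led Kcnk5, a two-pore channel sensitive to alkaline pH, at 10.9 and 43.3 CPM in taPVAT and 14.2 and 32.3 CPM in BAT. The lymphatic endothelial-like Reln cluster, counted within the vascular endothelial class, stood higher in both taPVAT libraries, at 47.1 and 140.0 CPM. In fibroblasts of each tissue replicate 2 was the higher library, and the tissues overlapped. The replicate 2 libraries also nearly lacked a fibroblast cluster, led by C7, that held 37.7 and 27.1% of fibroblast nuclei in the replicate 1 libraries of taPVAT and BAT and 0.323 and 0.283% in the replicate 2 libraries. Its median depth was 4863.5 UMIs, against 1734 in the other fibroblast cluster. Relative to the highest cluster for each marker, its fibroblast markers averaged 0.360 against 0.933. Its adipocyte markers averaged 0.542 against 0.291. The part of this cluster in the fibroblast levels of the replicate 1 libraries was not tested. Fibroblasts shared Kcnip4, another KChIP subunit, with mural nuclei, at 26.0 and 82.8 CPM in taPVAT and 60.2 and 83.9 CPM in BAT against 36.4 and 75.4 CPM in taPVAT and 41.5 and 69.2 CPM in BAT. Kcnq5 stood at 39.3 and 107 CPM in taPVAT and 56.9 and 46.0 CPM in BAT in fibroblasts.

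Schwann cell nuclei, from the glia that wrap the nerves of the fat, carried voltage-gated pore genes at the highest levels. Kcnc2 (Kv3.2) stood at 851 and 1479 CPM in taPVAT and 737 and 1034 CPM in BAT. Kcnd3 (Kv4.3) stood at 531 and 867 CPM in taPVAT and 553 and 575 CPM in BAT. Kcnh8, an Elk-type pore, stood at 384 and 575 CPM in taPVAT and 529 and 809.8 CPM in BAT. The tissues overlapped for these 3 genes. Kcnh8 reached at most 5.97 CPM in any library of the other 4 classes. A UMI of Kcnh8 was found in 53.3 to 67.3% of Schwann cell nuclei and in 0.470 to 1.14% of adipocyte nuclei, at median depths of 1986.5 and 3610 UMIs. Kcnq3 (Kv7.3) stood at 128 and 302 CPM in taPVAT and 48.3 and 50.1 CPM in BAT, with both taPVAT libraries above both BAT libraries. Kcnmb4, an auxiliary subunit of BK channels, stood at 14.4 and 37.7 CPM in taPVAT and 17.7 and 54.0 CPM in BAT, while the BK pore Kcnma1 had 1 and 0 UMIs in taPVAT and 0 and 1 UMIs in BAT. Markers of neurons summed to 33.9 and 0 CPM in taPVAT and 30.6 and 0 CPM in BAT, and 5 of the 8, Rbfox3, Elavl4, Th, Dbh and Prph, had no UMI in the class.

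Classes were tested against each other only in nuclei chosen singly by their marker UMIs, with at least 4 markers of a class, since that choice uses no Kcn gene. The adipocyte gate allowed at most 1 marker of any other class, but the other gates set no limit on adipocyte markers. Gated mural, vascular endothelial and fibroblast nuclei each had a median of 6 adipocyte markers detected. Of gated mural nuclei, 39.1% had exactly 4 mural markers and 78.0% lay in mural clusters. The part of adipocyte RNA in the calls below was not tested. Each class was compared with the mean of the other classes by edgeR's quasi-likelihood test with the library as a term and Benjamini-Hochberg adjustment over 9569 genes, of which 20 were Kcn genes. In mural nuclei 9 of the 20 were higher and 2 lower, against 13.4% and 4.68% of all genes tested. In vascular endothelial nuclei 4 were higher and 11 lower, against 25.7% and 22.5%. In adipocyte nuclei 9 were higher and 7 lower, against 25.5% and 24.4%, and in fibroblast nuclei 6 and 6, against 20.8% and 21.4%. The 20 genes passed a filter on low counts, so the counts describe them and not the 92. The filter could be passed on the counts of a single class. For a gene held mainly by that class, a higher call was thus partly fixed by the filter. The median log2 difference of the 20 was 0.32 in mural, -1.07 in vascular endothelial, -1.10 in adipocyte and -0.27 in fibroblast nuclei, where that of all genes lay between -0.05 and 0.02. DESeq2, which tested 77 members, called 9 higher in vascular endothelial nuclei (19.8% of all genes) and 15 lower in adipocyte nuclei (23.0%).

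The genes higher in mural nuclei included those described for the mural clusters. Genes held mainly by a single class could pass the low-count filter through it, so their p-values below are no separate support for the class pattern. The log2 difference was 7.96 (SE 0.24, adjusted p = 2.86e-16) for Kcnma1, 7.77 (SE 0.36, adjusted p = 7.14e-12) for Kcnt1 and 5.48 (SE 0.25, adjusted p = 1.90e-13) for Kcnj8. It was 6.57 for Kcnq5, 3.89 for Kcnq1, 3.90 for Kcnip4, 2.21 for Kcnh1 and 2.15 for Kcnab1. Abcc9 was higher by 6.16 (SE 0.22, adjusted p = 2.65e-15). Kcnt2 was higher in vascular endothelial nuclei by 4.66 (SE 0.25, adjusted p = 1.69e-12) and lower in mural nuclei, at -2.52 (SE 0.69, adjusted p = 0.0113). Kcnk5 was higher in fibroblast nuclei by 6.63 (SE 0.37, adjusted p = 3.52e-12). In adipocyte nuclei Kcnk3 was higher by 0.89 (SE 0.09, adjusted p = 1.003e-07) and Kcnip1 by 0.995 (SE 0.19, adjusted p = 2.25e-04).

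The gate did not select Schwann cells. Of 1010 nuclei with at least 4 Schwann cell markers, 87.5% lay in adipocyte clusters and 7.03% in the Schwann cell cluster, and 92.5% had exactly 4 markers. The 9 Kcn genes higher and 9 lower among them, against 21.2% and 24.2% of all genes, are therefore not read as results on Schwann cells. In the tests of the other classes this gate was part of the mean they were compared with. The counts, medians and Abcc8 differences given for those classes, adipocytes included, thus rest partly on a comparison with nuclei of adipocyte clusters. Without this gate, a comparison added after the data were seen, all genes named in the preceding paragraph kept their direction.

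The taPVAT and BAT libraries were then compared within each class with edgeR's quasi-likelihood test on summed UMIs. Of the 92 members, 52 could be tested in adipocyte, 20 in mural, 21 in vascular endothelial, 24 in fibroblast and 11 in Schwann cell nuclei, and 59 over all nuclei. No member passed an adjusted p of 0.05 in any of the 6 tests, the smallest being 0.564. These tests took no account of the replicate number. A fit with that number as a block did call members over all nuclei and in every class but mural. Its counts are given with the shares of all genes in the closing section on processing. By the same rule 0.0% of all genes passed in adipocyte, 0.0113% in mural, 0.0% in vascular endothelial, 0.0% in fibroblast and 0.0% in Schwann cell nuclei and 0.0% over all nuclei. DESeq2 also called 0 members in each class and over all nuclei, where it called 0.298% of the genes with an adjusted p in adipocyte, 0.174% in mural, 0.268% in vascular endothelial, 0.246% in fibroblast and 0.0% in Schwann cell nuclei and 0.536% over all nuclei. At an unadjusted p under 0.05, edgeR's test had 5 members in adipocyte nuclei (background 2.22%), 3 in mural (3.87%), 3 in vascular endothelial (2.6%), 3 in fibroblast (2.43%) and 2 in Schwann cell nuclei (1.22%), and 6 over all nuclei (2.85%). DESeq2 had 5, 2, 3, 2, 1 and 7 in the same order, of 82, 58, 66, 70, 44 and 84 members tested without a low-count filter, against 1.61, 1.21, 1.07, 1.26, 0.183 and 2.08% of all genes. Single libraries decided some calls: without taPVAT replicate 1, edgeR called 3 of 19 members tested in mural nuclei (Kcnma1, Kcnc2 and Kcnj8) and 3.08% of all genes, 1 of 23 in vascular endothelial (Kcnc2) and 0.571%, and 2 of 9 in Schwann cell nuclei (Kcnip1 and Kcnq3) and 0.184%. Without BAT replicate 1 it called Kcnh6 and Kcnn2 in adipocyte nuclei (0.766% of all genes) and over all nuclei (0.384%), and Kcnip1 in Schwann cell nuclei (0.111%). Each of these fits rests on a single library of 1 tissue, assumed to vary like the others.

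The median log2 difference of the tested members, taPVAT over BAT, was -0.02 in adipocyte, -0.11 in mural, 0.13 in vascular endothelial, 0.07 in fibroblast and -0.15 in Schwann cell nuclei, while that of all genes was within 0.01 of 0. In adipocyte nuclei both taPVAT libraries were above both BAT libraries for 8 members (background 9.39%) and below for 13 (11.5%). In mural nuclei this held for 2 (17.5%) and 5 (12.0%), in vascular endothelial nuclei for 7 (16.8%) and 2 (7.19%), in fibroblast nuclei for 4 (11.9%) and 2 (8.89%), and in Schwann cell nuclei for 1 (12.8%) and 2 (12.7%). Over all nuclei it held for 9 (11%) and 13 (10.3%). In either direction the libraries lay apart for 20.9% of all genes in adipocyte, 29.5% in mural, 24% in vascular endothelial, 20.8% in fibroblast and 25.4% in Schwann cell nuclei and 21.3% over all nuclei. With 2 libraries a tissue, such a separation is a description.

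In mural nuclei the 3 members with the smallest p had negative log2 differences. Kcnma1 had a log2 difference of -1.15 (SE 0.34, unadjusted p = 0.00998, adjusted p = 0.938), with the 2 taPVAT values, 198 and 106 CPM, below the 2 BAT values. The cluster that holds it had smaller shares in taPVAT: the Acta2 cluster held 14.2 and 5.14% of mural nuclei in taPVAT and 25.2 and 22.4% in BAT. Of the 8 genes of the smooth muscle contractile list, all were tested in mural nuclei, 0 passed edgeR's adjusted threshold and 7 were lower at an unadjusted p under 0.05 (3.87% of all genes in either direction), with a median log2 difference of -1.40. Acta2 in mural nuclei stood at 234 and 146 CPM in taPVAT and 496 and 499.9 CPM in BAT. The part of this cluster's share in the Kcnma1 values was not tested, and within the cluster Kcnma1 stood at 692 CPM in the 1 taPVAT library with a value and at 853 and 989 CPM in BAT. Kcnab1, of the same cluster, differed by -0.75 (SE 0.34, unadjusted p = 0.057).

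Kcnc2 in mural nuclei stood at 20.2 and 6.86 CPM in taPVAT and 48.4 and 39.2 CPM in BAT, a log2 difference of -1.59 (SE 0.45, unadjusted p = 0.00799, adjusted p = 0.936). Kcnh2 differed by -2.63 (SE 0.76, unadjusted p = 0.00918, adjusted p = 0.938), on 2 and 1 UMIs in taPVAT and 12 and 9 UMIs in BAT. For both genes each taPVAT library lay below either BAT library. Kcnc2 in mural nuclei was at 9.76 to 40.8% of its adipocyte level, and the part of adipocyte RNA in it was not tested. For Kcnj8 the log2 difference was 0.67 (SE 0.41, unadjusted p = 0.144), and it was 0.00 without taPVAT replicate 2 and 1.14 (adjusted p = 0.0479) without taPVAT replicate 1. Abcc9 differed by 0.64 (SE 0.39, unadjusted p = 0.14). The pericyte list, of which 8 genes were tested and 0 passed edgeR's adjusted or unadjusted threshold, had a median log2 difference of 0.60. Within the Rgs5 cluster Kcnj8 stood at 234, 365, 234 and 247 CPM, so that the taPVAT replicate 2 library was high and the other 3 lay close together.

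In adipocyte nuclei Kcnk2, the mechanosensitive two-pore channel TREK-1, stood at 4.02 and 1.94 CPM in taPVAT and 1.003 and 0.993 CPM in BAT, a log2 difference of 1.61 (SE 0.46, unadjusted p = 0.0142). Kcnk2 overlaps another protein-coding gene in the RefSeq annotation, which leaves its counts uncertain. Kcnc2 differed by -0.93 (SE 0.27, unadjusted p = 0.0156). Kcnj6, a G protein-gated inward rectifier, differed by 1.66 (SE 0.54, unadjusted p = 0.0239) on 30 and 18 UMIs in taPVAT and 9 and 7 UMIs in BAT. Kcne2, an auxiliary subunit of voltage-gated channels, differed by 1.19 (SE 0.43, unadjusted p = 0.0365). The 2 groups of libraries did not overlap for any of the 4. Of other members, Kcnk3 differed by -0.29 (SE 0.48, unadjusted p = 0.568), Kcnip1 by -0.67 (SE 0.28, unadjusted p = 0.0554) and Kcnj11 by 0.40 (SE 0.34, unadjusted p = 0.296). Kcnk3 turned to 0.29 without BAT replicate 1 and to 0.09 without taPVAT replicate 2. Over all nuclei, where adipocytes were the majority, the smallest p-values belonged to Kcnc2, at -0.90 (SE 0.24, unadjusted p = 0.0126), Kcnk2, at 1.49 (SE 0.43, unadjusted p = 0.0156), Kcnip1, at -0.79 (SE 0.23, unadjusted p = 0.0179), and Kcne2, at 1.21 (SE 0.39, unadjusted p = 0.0255).

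In vascular endothelial nuclei Kcng3, a silent voltage-gated subunit, stood at 11.6 and 8.74 CPM in taPVAT and 2.36 and 2.05 CPM in BAT, a log2 difference of 2.14 (SE 0.50, unadjusted p = 0.00333, adjusted p = 0.564). Kcnk5 stood at 5.52 and 13.6 CPM in taPVAT and 0.787 and 1.64 CPM in BAT, a log2 difference of 2.69 (SE 0.76, unadjusted p = 0.00922, adjusted p = 0.883). Both taPVAT libraries were above both BAT libraries for each gene. The Reln cluster moved with Kcnk5: at the finer clustering, which set that cluster apart, the remaining vascular endothelial nuclei had 3 and 0 UMIs of Kcnk5 in taPVAT and 2 and 1 in BAT, too few to test. The lymphatic markers summed to 641 and 1585 CPM in the taPVAT and 73.2 and 154 CPM in the BAT libraries of the class. Kcnc2, at 5.53 to 25.7% of its adipocyte level, differed by -1.41 (SE 0.52, unadjusted p = 0.0303) and Kcnmb4 differed by -0.95 (SE 0.49, unadjusted p = 0.0896). Of the members the class led, Kcnt2 differed by 0.59 (SE 0.30, unadjusted p = 0.093).

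In fibroblast nuclei Kcnip1 stood at 68.9 and 39.6 CPM in taPVAT and 146 and 146 CPM in BAT, a log2 difference of -1.44 (SE 0.40, unadjusted p = 0.0111). Its level there was 29.7 to 79.4% of that in adipocyte nuclei, where the adipocyte markers had a median of 22.8 to 65.6%, and the part of adipocyte RNA in it was not tested. Kcnt2 stood at 38.4 and 31.3 CPM in taPVAT and 8.19 and 19.4 CPM in BAT, a log2 difference of 1.39 (SE 0.53, unadjusted p = 0.0392). For both genes the 2 taPVAT libraries lay apart from the 2 BAT libraries. The summed level of the 10 mesothelial markers in the features was 68.7 and 159 CPM in the taPVAT and 2.88 and 2.42 CPM in the BAT libraries of this class, with Krt19 and Krt18 at 0 UMIs in all 4, and the part of these markers' cells in the fibroblast differences was not tested. Kcne2 differed by 1.40 (SE 0.57, unadjusted p = 0.0495) and Kcnh2 by -0.95 (SE 0.54, unadjusted p = 0.129), on 16 and 4 UMIs in taPVAT and 33 and 6 UMIs in BAT. Kcnk5, which fibroblasts led, differed by 0.17 (SE 0.76, unadjusted p = 0.836), and turned to -1.08 without taPVAT replicate 2.

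In Schwann cell nuclei Kcnq3 had a log2 difference of 2.00 (SE 0.49, unadjusted p = 0.00164), from 98 and 32 UMIs in taPVAT and 30 and 13 UMIs in BAT. Kcnip1 differed by -2.02 (SE 0.74, unadjusted p = 0.018), from 60 and 0 UMIs in taPVAT and 67 and 90 UMIs in BAT, where the taPVAT replicate 2 library holds 41 nuclei. Its level there was 0 to 189% of that in adipocyte nuclei, and the part of adipocyte RNA in it was not tested. Kcnn3 differed by -0.98 (SE 0.73, unadjusted p = 0.206) and Kcnh8 by -0.52 (SE 0.46, unadjusted p = 0.286). For Kcnq3, Kcnip1 and Kcnn3 the taPVAT values lay apart from the BAT values, and for Kcnh8 they overlapped.

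**Figure D5:**
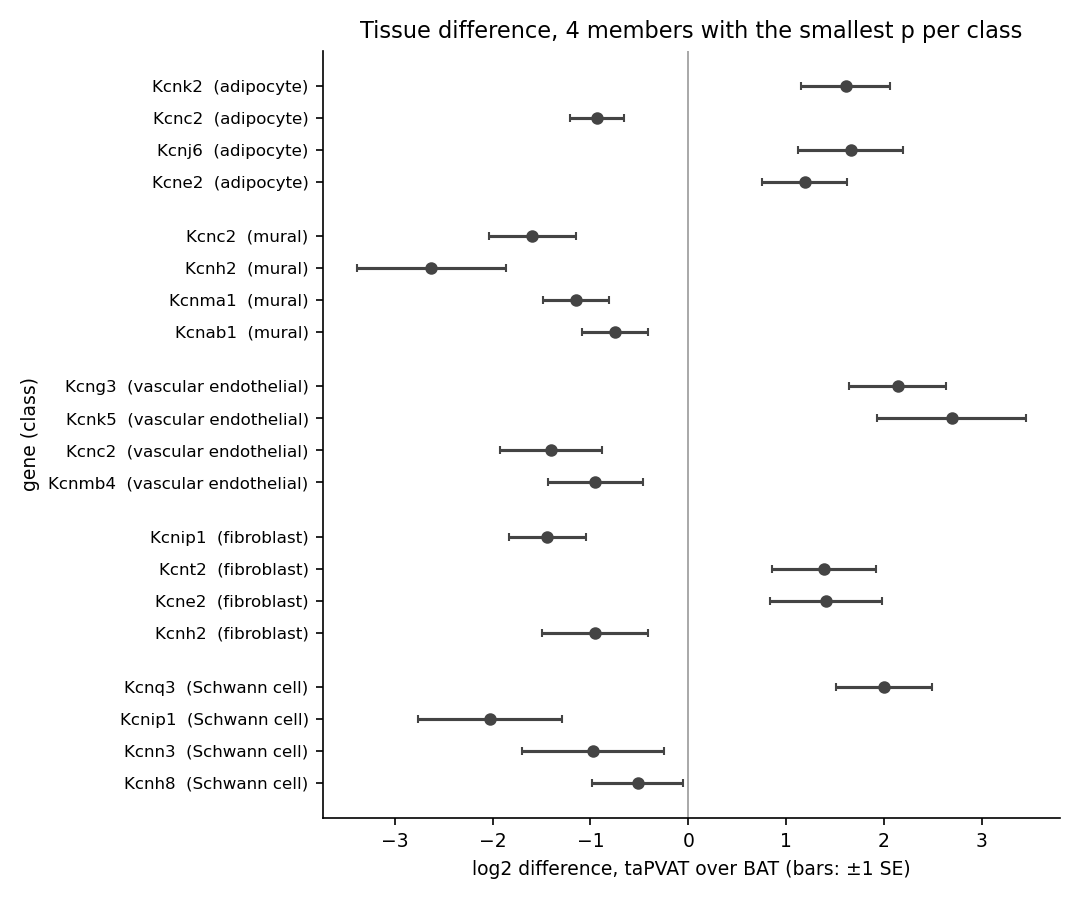
Log2 difference, taPVAT over BAT, with 1 SE, of the 4 members with the smallest unadjusted p in each class. Points right of 0 have higher fitted levels in taPVAT, such as Kcnq3 in Schwann cell nuclei at 2.00, and points left of 0 lower, such as Kcnma1 in mural nuclei at -1.15; none passed an adjusted p of 0.05.

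Whether the tissue difference of a member differed between a class and adipocytes was tested with an interaction term in edgeR. No member passed in mural, vascular endothelial, fibroblast or Schwann cell nuclei, where 0.0468%, 0.0131%, 0.0% and 0.0% of all genes did, and 3, 3, 0 and 3 members had an unadjusted p under 0.05, against 2.71%, 2.25%, 1.58% and 1.17% of all genes. DESeq2 was not run for this comparison. Without taPVAT replicate 1, 3 of 52 members passed in mural nuclei (Kcng2, Kcnab1 and Kcnq1), against 1.91% of all genes, and without taPVAT replicate 2, 1 of 53 (Kcng3) passed in vascular endothelial nuclei, against 0.288%. The smallest p belonged to Kcnq3, whose log2 difference was larger in Schwann cell than in adipocyte nuclei by 2.23 (SE 0.56, unadjusted p = 5.75e-05, adjusted p = 0.503). For Kcnk5 the endothelial difference exceeded the adipocyte one by 3.41 (SE 0.92, unadjusted p = 0.00336, adjusted p = 1). That endothelial class includes the lymphatic endothelial-like Reln cluster. At the finer clustering the other vascular endothelial nuclei had 3 and 0 UMIs of Kcnk5 in taPVAT and 2 and 1 in BAT.

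Genes that work with the channels were read from lists. Of 13 partner subunits with other names (sulfonylurea receptors, Dpp and Lrrc subunits, Amigo1 and Hcn channels), 9 were tested in adipocyte nuclei, 2 in mural, 2 in vascular endothelial, 5 in fibroblast and 3 in Schwann cell nuclei, and 0 passed edgeR's adjusted threshold. At an unadjusted p under 0.05 the count was 1 in fibroblast nuclei (2.43% of all genes) and 0 in the other classes. Lrrc52, a partner of BK-type channels, stood at 37.0 and 46.1 CPM in taPVAT and 21.7 and 35.0 CPM in BAT in adipocyte nuclei, where Kcnma1 was at 0.371 to 0.918 CPM. Abcc8 differed by 0.96 (SE 0.40, unadjusted p = 0.0545) in adipocyte nuclei.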

How the data were processed

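Single-nucleus RNA libraries (10x Genomics 3' v3.1) of taPVAT and BAT were read as the UMI counts per gene and barcode that the authors deposited. Per the submitters' processing notes, Cell Ranger 7.1.0 and the rat build Rnor_6.0 were used, and whether introns or strand were considered is not given in the sources used here. The deposited counts held 14765 to 44637 barcodes per library, each with at least 500 UMIs, and 63654436 to 158140959 UMIs. Nuclei with at least 500 detected genes were kept, with no limit on mitochondrial counts, whose median share of UMIs was 6.85 to 10.5% per library after filtering. By class this median was 7.13% in adipocyte, 16.3% in mural, 19.0% in vascular endothelial, 14.2% in fibroblast and 13.8% in Schwann cell nuclei. Scrublet (in scanpy 1.11.5) removed 10.8% and 6.61% of taPVAT nuclei (replicates 1 and 2) and 15.3% of BAT replicate 2. It called none in BAT replicate 1, where its call had failed, so the 6402 nuclei with the highest scores (18.5%) were removed there, at 0.670 times the expected doublet rate, the median of this ratio in the other libraries.

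Nuclei were clustered (3000 variable genes without Kcn genes and partner subunits, 30 principal components, 15 neighbours, Leiden resolution 1, leidenalg 0.10.2) and named from 15 marker lists. UMIs were summed per library and class and tested with edgeR 4.0.16 (quasi-likelihood, TMM, filterByExpr, R 4.3.3) with Benjamini-Hochberg adjustment over all genes and a threshold of 0.05. DESeq2 1.42.0, other normalizations, filters, class definitions and leaving out each library were alternatives. On simulated counts of the adipocyte sums, 94% of 100 genes changed by 2 on the log2 scale and 70% of 100 changed by 1 were recovered. For Schwann cell sums these shares were 84% and 33%. The simulation gave every gene the same fixed dispersion and the libraries no shared deviations. These shares therefore do not measure the power of the tests on the real libraries. Levels by cluster carry no test, since the clusters come from the same nuclei.

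The genes named were the members led by 1 class in all 4 libraries, up to 6 per class, the 4 members with the smallest p per tissue comparison, and always Kcnk3, Kcnj8, Kcnj11, Kcnma1, Kcnip1, Abcc8 and Abcc9. Some members and genes are not reported here. Members named besides these were chosen after their values were seen. The members and lists were chosen with earlier results of these data known. Of the 92 members, 12 overlap another protein-coding gene in the RefSeq annotation, and their counts are uncertain. Kcnip1, Kcnk2 and Kcnmb1 are among them. Promoters were matched by symbol in RefSeq's table, which held 62 of the members in 70 windows.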

Additional observations from a re-analysis of the deposited data

How the results depend on the processing

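Depth limited which members could be tested: 52 of 92 in adipocyte nuclei but 11 in Schwann cell nuclei passed the low-count filter, and taPVAT replicate 2 held 41 Schwann cell nuclei. Percentages here are of all genes called in the same fit. Without the low-count filter edgeR called 1 member each in mural (Kcnc2, 0.631%), vascular endothelial (Kcnk5, 0.601%) and Schwann cell nuclei (Kcnip1, 0.0745%). Leaving out each library gave 0 to 2 called members over all nuclei and in adipocyte nuclei, 0 to 3 in mural, 0 to 1 in vascular endothelial and 0 to 2 in Schwann cell nuclei. For the interaction with adipocytes it gave 0 to 3 in mural and 0 to 1 in vascular endothelial nuclei, and with at least 1000 genes per nucleus 1 (Kcnq3, 0.00717%) in Schwann cell nuclei. The replicate number as a block called 5 of 59 members over all nuclei (Kcnc2, Kcnip1, Kcnh6, Kcnk2 and Kcnd3, 2.32%), 1 of 52 in adipocyte (1.36%), 3 of 21 in vascular endothelial (1.98%), 2 of 24 in fibroblast (1.97%), 1 of 11 in Schwann cell (0.237%) and 0 of 20 in mural nuclei (0.0454%). The correlation of deviations between same-numbered libraries was 0.338 to 0.669, but with 2 pairs and no statement that a number marks 1 rat, the numbers were not taken as pairs. Between gated classes, DESeq2 called 15 members lower in adipocyte (23.0%) and 9 higher in vascular endothelial nuclei (19.8%). In mural nuclei 4 were lower with at least 3 markers (5.06%), 1 with at least 5 (4.77%), and 1 to 3 when a library was left out (2.57 to 3.78%), the 1 without taPVAT replicate 1. With nuclei gated singly adipocytes led 1 member, which was none of the 3 led before, and vascular endothelial nuclei 1 (Kcnt2). Without the Schwann cell gate, added after the data were seen, these were 6 and 1. Of named log2 differences, 16 changed sign. With 1 library left out at a time, the range was -0.86 to 0.29 for Kcnk3 in adipocyte nuclei, where Kcnk3 also gave 0.09. In mural nuclei it was -0.32 to 0.92 for Kcnq1, -0.11 to 0.57 for Kcnq5 and -0.58 to 0.090 for Kcnt1, which also gave 0.08. It was -0.12 to 0.40 for Kcnn4 in vascular endothelial nuclei, with a further -0.06, -1.08 to 0.90 for Kcnk5 in fibroblast nuclei, with a further -0.39, and -0.072 to 0.71 for Kcnc2 and -0.10 to 0.59 for Kcnd3 in Schwann cell nuclei. The others were Kcnk5 in fibroblasts with the replicate block (-0.014) and in gated nuclei (-0.065), and Kcnc2 (-0.49) and Kcnh8 (0.31) in gated Schwann cell nuclei, which lay mostly in adipocyte clusters. A further 454 kept direction and side, and 21 came to pass the threshold. The cause was not tested. A limit of 5% mitochondrial UMIs was not run in 4 classes, which it left with 0 to 2 nuclei in a library.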

Other observations

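Genes that supply calcium to calcium-activated channels differed in level between classes, and these levels are a description. In mural nuclei Cacna1c, the pore of the L-type calcium channel, stood at 418 and 581 CPM in taPVAT and 377 and 437 CPM in BAT, in the order replicate 1, replicate 2. Its auxiliary subunit gene Cacna2d1 stood at 797 and 696 CPM in taPVAT and 919 and 731 CPM in BAT in the same nuclei. Cacna1c reached 0.993 to 4.24 CPM in adipocyte nuclei. Ryr2, a calcium release channel of the sarcoplasmic reticulum, stood at 59.4 and 13.7 CPM in taPVAT and 101 and 116 CPM in BAT in mural nuclei, with both taPVAT libraries below both BAT libraries. In Schwann cell nuclei the family member with a high level was Ryr3, at 193 and 320 CPM in taPVAT and 338 and 370 CPM in BAT. Adipocyte nuclei carried the inositol trisphosphate receptor genes Itpr1, at 1338 to 1866 CPM, and Itpr2, at 1183 to 1531 CPM. Itpr1 and Itpr2 were not limited to adipocytes in nuclei chosen singly by markers. Their log2 differences from the mean of the other classes were 0.65 and 1.05 in adipocyte and 0.36 and -0.26 in mural nuclei. They were -0.12 and -0.47 in vascular endothelial and -1.55 and -1.34 in fibroblast nuclei. The Schwann cell gate was part of these means. Of the 15 genes of this list, 13, 11, 9, 9 and 6 were tested between the tissues in adipocyte, mural, vascular endothelial, fibroblast and Schwann cell nuclei, and 0 passed edgeR's adjusted threshold in any of them. At an unadjusted p under 0.05 the counts were 2 in adipocyte, 2 in mural, 2 in vascular endothelial, 1 in fibroblast and 0 in Schwann cell nuclei, where 2.22%, 3.87%, 2.6%, 2.43% and 1.22% of all genes were under it.

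The sodium-potassium pump restores the gradient that these channels use. Fxyd1, a regulatory subunit, was highest in Schwann cell nuclei, at 136 and 302 CPM in taPVAT and 180.2 and 208 CPM in BAT. Atp1b2, a beta subunit, was detected mainly in mural nuclei, at 17.5 and 29.1 CPM in taPVAT and 18.4 and 16.5 CPM in BAT, and reached at most 4.85 CPM in the other classes. Of the 13 pump genes, 11, 7, 7, 7 and 6 were tested in the 5 classes in the same order, and 0 passed edgeR's adjusted threshold. At an unadjusted p under 0.05 the count was 1 in vascular endothelial nuclei and 0 in the other classes, against the same shares of all genes.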
